A study of Mus musculus with 80 samples.

Results

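METTL3 is the catalytic subunit of the nuclear complex that writes N6-methyladenosine (m6A) on RNA, and the question here was whether its catalytic site is needed to hold Xist RNA at its usual level. The comparison used the 8 libraries with doxycycline (Dox) of the XiO transgene cells, out of 80 libraries in the series. They were chosen by their labels as dTAG + Dox against Dox in a D395A clone, the same in a WT clone, and the difference of both effects, each library paired with the library of the same clone and replicate number. ChrRNA-seq reads RNA still bound to chromatin, and so mostly RNA under synthesis or kept in the nucleus. Of 22556 genes, 13448 passed a minimum mean of 1 CPM (reads of a gene scaled to a fixed library total).

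All 8 libraries came from mouse embryonic stem (mES) cells of a Cast x 129S background, in which a TetOn promoter replaces the Xist promoter of the Cast X chromosome, so that Dox induces Xist. XiO cells hold only this X chromosome. Endogenous METTL3 carried a C-terminal FKBP12F36V tag (METTL3 clone H5) and is degraded on addition of dTAG-13. Each line also expressed GFP-METTL3 from the Rosa26 promoter, wild type in clone WT_1A and D395A in clone D395A_9F. Cells were given Dox for 24 h, or dTAG for 2 h and then dTAG with Dox for 24 h, with 2 replicates of each. WT and D395A were each 1 clone, so the transgene and any other difference between the clones cannot be told apart, and the replicates show the spread within a clone. The other 8 XiO libraries, untreated or with dTAG alone, entered the fit to estimate the spread.

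Xist is the long noncoding RNA that coats the X chromosome it is made from and brings about silencing of genes along it. METTL3 acts with METTL14, WTAP and further subunits, and reader proteins such as YTHDC1 bind the mark in the nucleus. The D395A substitution replaces an aspartate of the catalytic motif of METTL3. It is shown here because it is the only designed difference between both transgenes. The reference coding sequence of mouse Mettl3 (RefSeq NM_019721.2, GRCm38.p6, minus strand, chr14:52297560-52297622, inside coding exon 6 of 11) is printed with the codon of that aspartate in capitals, and the letters are those of the reference, not of the transgene.
Mettl3, codons around the D395A site: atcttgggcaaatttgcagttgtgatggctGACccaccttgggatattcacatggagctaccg

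The libraries held 12.7 to 34.4 M reads, and a single read was worth 0.0291 to 0.0790 CPM. Genes spanning under 3 kb took 0.657% to 1.17% of reads with Dox, with overlapping ranges in all 4 groups. Of 10 stem cell markers, 9 were measured and Sox2 was listed at 0 in all 16 XiO libraries. Their summed level was 718 to 892 CPM (Dox) and 870 to 926 CPM (dTAG + Dox) in the WT clone, and 1288 to 1687 CPM and 1155 to 1218 CPM in the D395A clone. Esrrb held the largest part of each stem cell marker sum, at 229 to 374 CPM and 280 to 391 CPM in WT. In D395A it was at 617 to 1024 CPM and 477 to 707 CPM. The cells grew on feeder fibroblasts. Of 18 feeder markers 10 passed the filter, with Postn, Lum, Twist1 and S100a4 at or near 0, and their summed level (mostly Fn1) was 1460 to 2083 CPM and 1575 to 2101 CPM in WT, and 1417 to 2244 CPM and 1324 to 1756 CPM in D395A. In bulk libraries, fewer cells of a type and less RNA per cell cannot be told apart.

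Xist was higher after dTAG in the D395A clone and not in the WT clone. In the D395A clone its level was 2432 and 2535 CPM with Dox and 5839 and 4363 CPM with dTAG + Dox, in replicates 1 and 2. In the WT clone it was 3429 and 4599 CPM with Dox and 3346 and 4228 CPM with dTAG + Dox. Both D395A pairs rose and both WT pairs lay slightly lower, and the D395A libraries without dTAG were the lowest of the 8. The D395A level with dTAG + Dox overlapped that of WT cells, since replicate 2 lay below a WT library.

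The D395A change of Xist was 1.02 ± 0.21 (log2, SE, n = 2 pairs; 2.03-fold), with an adjusted p of 0.00301 in limma. The pairs gave 1.26 and 0.78. The WT change was -0.08 ± 0.21 and was not called. The difference of the effects was 1.10 ± 0.29, with an adjusted p of 0.0333 in limma. In a blocked fit of only the 8 libraries with Dox, the D395A change was 1.02 ± 0.09 (adjusted p 8.67e-05 in limma). The difference was then 1.10 ± 0.13 (adjusted p 0.0017 in limma). Without the replicate block neither was called (adjusted p 0.198 for the D395A change), so both calls rested on comparing libraries within a replicate. Without D395A replicate 1 the D395A change was 0.78 (adjusted p 0.061) and the difference 0.86 (adjusted p 0.146), and the difference was also not called without WT replicate 1 (1.14), without WT replicate 2 (1.06) or after median-ratio scaling (0.97, adjusted p 0.059).

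**Figure D1:**
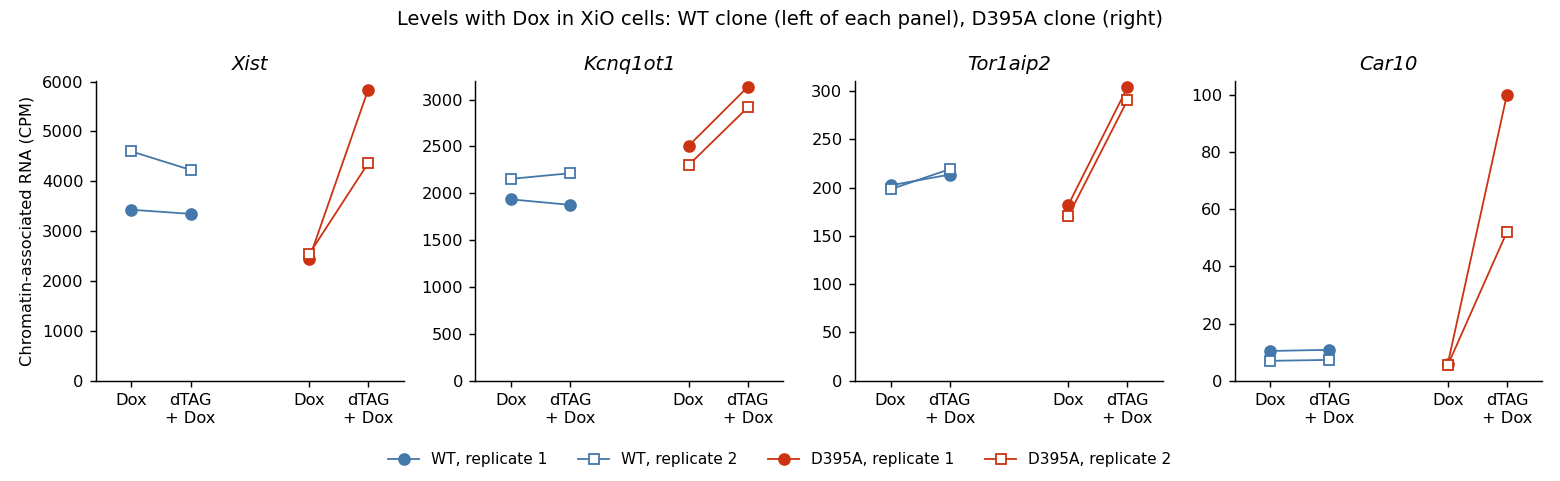
Level (CPM, linear axis from 0) of Xist, Kcnq1ot1, Tor1aip2 and Car10 in the 8 libraries with Dox, with a line joining the libraries of a replicate pair. Xist went from 2432 to 5839 and from 2535 to 4363 CPM in the D395A clone, whereas the WT lines are nearly flat in all 4 panels.

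Across all genes the D395A clone responded to dTAG and the WT clone did not pass the test for any gene. In D395A 4182 genes were called (31.1% of those tested), 3188 higher (23.7%) and 994 lower (7.39%). In WT 0 genes were called (0%) with limma, edgeR or DESeq2, and 367 had an unadjusted p under 0.05 in limma (2.73%). The difference of the effects was called for 1250 genes (9.3%), 915 with a higher (6.8%) and 335 with a lower (2.49%) D395A effect. Of the 1250, 910 were also called higher and 333 also called lower in D395A alone, and both contrasts share the D395A libraries. Without the replicate block 7 genes were called in D395A and 0 for the difference, and without WT replicate 1 or 2 the difference was called for 65 or 39 genes.

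The balance of higher and lower genes depended on scaling. The median D395A change over all genes was 0.11 in CPM and -0.03 after median-ratio scaling over autosomal genes, and the WT medians were 0.01 and -0.01. After that scaling 1532 genes were called higher (11.4%) and 2404 lower (17.9%) in D395A, and 468 (3.48%) and 815 (6.06%) for the difference. Scaling shifted every D395A change down by about the same amount, so it took away higher calls and added lower ones, and 1532 of the 3188 higher calls remained. Directions below are given in CPM, beside the median of 0.11, and a D395A call that scaling ended is marked as such. Without D395A replicate 1 or 2 the D395A count was 1626 or 2154.

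The correlation of the log2 change of pair 1 with that of pair 2, across 13448 genes that share their libraries' depth, was 0.72 in D395A and 0.02 in WT. The SD of the change across genes was 0.32 in D395A and 0.12 in WT.

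**Figure D2:**
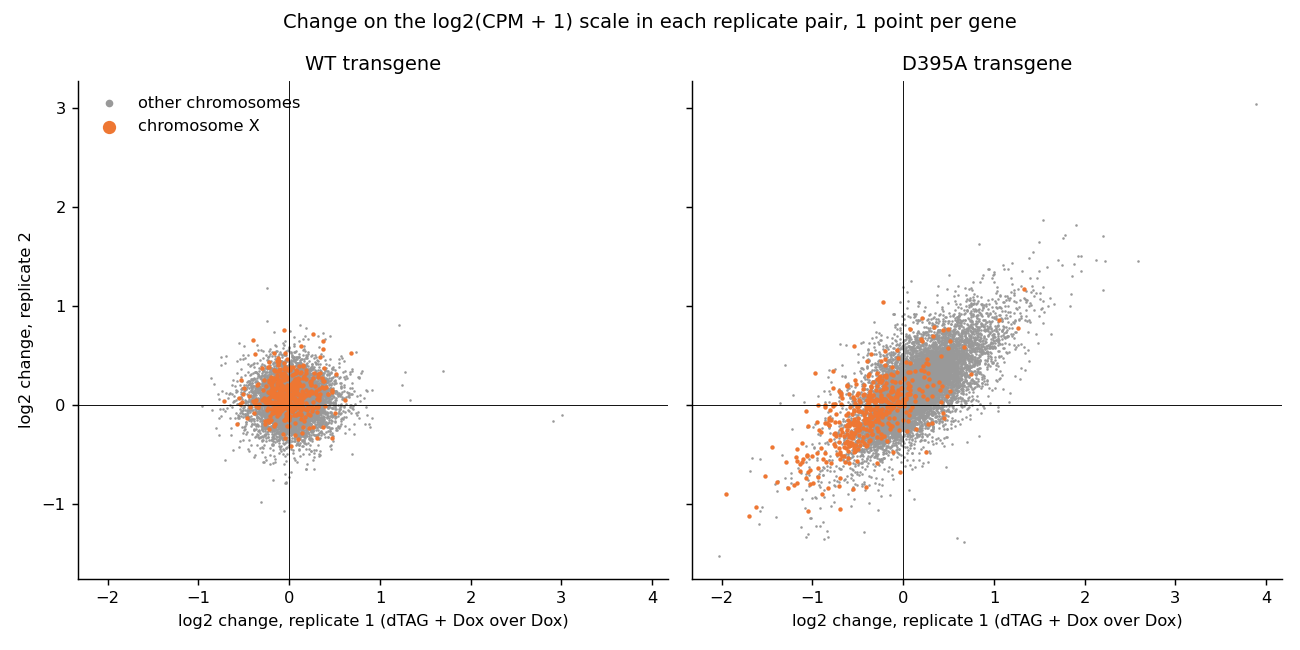
Log2 change with dTAG in replicate 2 against replicate 1, 1 point per gene, for the WT clone (left) and the D395A clone (right), with X-linked genes in orange. The WT cloud is round (correlation 0.02), the D395A cloud is drawn out along the diagonal (0.72), and the X-linked medians lie below 0 in both D395A pairs (-0.36 and -0.05).

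The genes that rose most in the D395A clone were mostly long genes with a low level. The 10 highest by the naming rule spanned 9.29 to 613 kb (median 315 kb), with mean levels of 5.78 to 62.6 CPM. Car10, a carbonic anhydrase-related gene of brain (chromosome 11, positions 93099289 to 93601751, plus strand), was at 5.85 and 5.43 CPM with Dox and at 100.2 and 52.1 CPM with dTAG + Dox. In WT it was at 10.4 and 6.97 CPM, and at 10.8 and 7.30 CPM with dTAG. No D395A library with dTAG overlapped another group. Its change was 3.47 ± 0.16 (log2; 11.0-fold; adjusted p 2.72e-07 in limma) and the difference from WT 3.41 ± 0.23 (adjusted p 2.29e-05 in limma).

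Megf11, an EGF-repeat cell surface protein, went from 37.6 and 34.0 CPM to 131.6 and 114.4 CPM in D395A, with 40.4 to 69.0 CPM in the 4 WT libraries. Its change was 1.75 ± 0.10, the most even between pairs of these genes (1.78 and 1.72). Other genes of this group were Lsamp and Cntnap4, neuronal adhesion proteins, Gpr141, an orphan receptor, Nav3, Ptchd4, Slc2a13, a myo-inositol transporter, and Adamts1, a secreted protease. Their changes lay between 1.59 and 1.73, and all of the 10 highest were also called for the difference.

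The genes that fell most included 3 on the X chromosome. Dnah8, an axonemal dynein heavy chain (chromosome 17, positions 30626935 to 30875264, plus strand), was at 154.2 and 56.8 CPM with Dox and at 37.1 and 19.1 CPM with dTAG + Dox in D395A. WT libraries held 335 and 119 CPM, and 355 and 146 CPM with dTAG, so the clones also differed before treatment and replicate 1 was higher throughout. The change of Dnah8 was -1.78 ± 0.13 (adjusted p 1.24e-05 in limma), and it was the lowest for the difference too (-1.96 ± 0.19).

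Nr0b1 (a nuclear receptor of stem cells), Slc7a3 (a cationic amino acid transporter) and Rbmx (an RNA-binding protein with close copies elsewhere in the genome, hence an uncertain count) are X-linked, and fell by 1.42, 1.41 and 1.32. Slc7a3 went from 15.8 and 20.2 CPM to 4.19 and 8.81 CPM, and stayed at 16.2 to 19.3 CPM in WT. Gpa33, Spink3, Ypel2, Cdh9, Zeb2 (a repressor of epithelial genes) and Prdm1 (a germ line repressor) had changes of -1.39 to -1.18. For Cdh9 and Prdm1 the difference from WT was not called (adjusted p 0.0659 and 0.0627 in limma). The 10 lowest for the difference also held Ncam1 (-1.28 ± 0.16), Phf11d, Tfeb, a regulator of lysosomal genes, and Firre.

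All 20 of these genes were called in the same direction by dTAG against no dTAG in D395A cells without Dox (a contrast with 26.1% of all genes higher and 8.28% lower, 34.4% in all), and after median-ratio scaling. In a separate table of XX transgene clones, which was scaled and fitted on its own, where 19.8% of genes were higher and 9.44% lower (29.3% in all), all 20 were again called in the same direction in the D395A clone with Dox, Car10 at 3.28 and Dnah8 at -2.08. Without the replicate block 3 of the 20 were called.

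**Figure D3:**
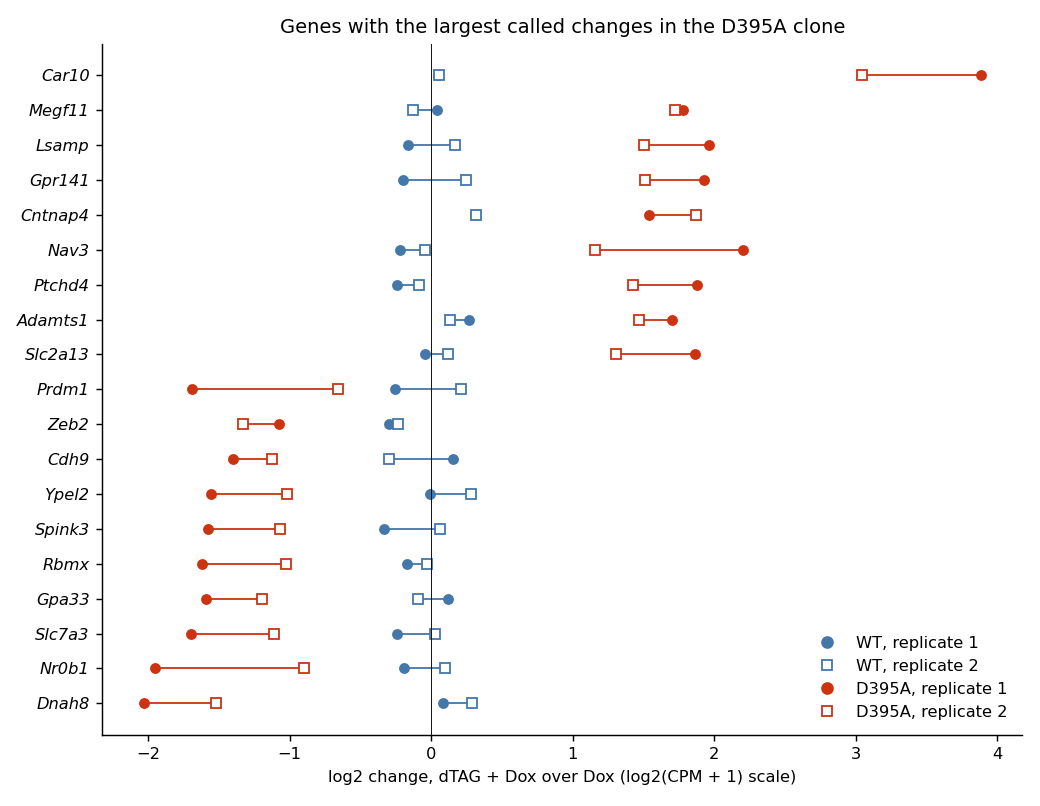
Log2 change with dTAG in each replicate pair for the highest and lowest named genes of the D395A clone (red), beside the WT clone (blue). Genes were admitted only if both red points lie on the same side of 0, and the WT changes, as means of both pairs, lie between -0.27 and 0.31.

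Kcnq1ot1, the antisense RNA that silences imprinted neighbours at the Kcnq1 locus, rose less than Xist. It was at 2507 and 2301 CPM with Dox and 3135 and 2917 CPM with dTAG + Dox in D395A, and at 1877 to 2214 CPM in WT. The groups did not overlap in D395A, and the WT pairs moved in opposite directions. The change was 0.33 ± 0.06 (1.26-fold; adjusted p 0.00176 in limma) and the difference 0.34 ± 0.09 (adjusted p 0.0302 in limma). After median-ratio scaling it was 0.18 (adjusted p 0.0655) and the difference 0.21 (adjusted p 0.193), neither called. Without the replicate block the adjusted p of the D395A change was 0.439, and the difference was not called whichever replicate was left out (adjusted p 0.0689 to 0.257 in limma). In the XX D395A clone Kcnq1ot1 changed by 0.76 and Xist by 0.66, both called in that table's own fit.

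Among its neighbours, 4 of 8 measured genes were higher in D395A and 0 lower, with a median of 0.38, against 23.7% higher and a median of 0.11 over all genes. Tspan32 rose from 1.05 and 0.920 CPM to 3.66 and 3.26 CPM (1.17 ± 0.21). Kcnq1, the potassium channel gene on the opposite strand, rose by 0.96 ± 0.14 and Osbpl5 by 0.83 ± 0.12. Slc22a18 rose by 0.46, a call that scaling ended. Counting kept the strand, so Kcnq1 and Kcnq1ot1 reads were told apart as far as the stranded kit allows.

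Tor1aip2, which encodes a membrane protein that activates torsin ATPases, rose evenly (pairs of 0.74 and 0.77). It was at 181.7 and 170.3 CPM with Dox and 303.6 and 290.3 CPM with dTAG + Dox in D395A, and at 198.2 to 219 CPM in WT. Its change was 0.75 ± 0.06 (adjusted p 1.24e-05 in limma) and the difference 0.64 ± 0.08 (adjusted p 0.00162 in limma). Malat1, an abundant RNA of nuclear speckles, was at 6615 and 5507 CPM with Dox and 4721 and 4366 CPM with dTAG + Dox in D395A, and at 5692 to 9138 CPM in WT. It fell by 0.41 ± 0.12 in D395A, and the difference was -0.64 ± 0.17 (adjusted p 0.0337 in limma).

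Of 14 genes listed by name, with earlier results of these data known, these 4 (Xist, Kcnq1ot1, Tor1aip2, Malat1) were called in D395A and for the difference, against 31.1% and 9.3% of all genes. The WT changes of all 14 lay between -0.08 and 0.34 and none was called. Mettl3 was at 79.7 and 59.2 CPM with Dox and 70.4 and 54.2 CPM with dTAG + Dox in D395A, and at 62.3 to 67.9 CPM in WT. Endogenous and transgene RNA were not separated in this count. dTAG removes the protein, so the RNA level checks nothing about the degron. Changes that were not called in D395A were -0.15 (Mettl3), -0.18 (Mettl14 and Wtap), -0.05 (Ythdc1), 0.02 (Zcchc8), -0.04 (Spen), 0.07 (Pou5f1), -0.21 (Nanog), -0.33 (Neat1) and -0.34 (Tsix). After median-ratio scaling Mettl3, Wtap, Ythdc1 and Tsix were called lower, and Zcchc8 (-0.13) and Pou5f1 (-0.09) changed sign without a call.

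X-linked genes were called lower with dTAG + Dox in the D395A clone more often than autosomal genes. Of 442 measured genes other than Xist, 140 were called lower (31.7%, against 6.57% of autosomal genes) and 13 higher (2.94%, against 24.4%). The median change was -0.20 against 0.12 over 13004 autosomal genes. The pairs gave -0.36 and -0.05, and 242 of the genes were lower in both pairs. After median-ratio scaling the median was -0.34, with 200 genes lower and 5 higher. Of the 13004 autosomal genes, 2204 were then lower and 1526 higher, with a median of -0.02. The autosomes taken singly had medians of 0.08 to 0.17 in CPM.

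In the WT clone the median of the X-linked genes was 0.04, with pairs of -0.02 and 0.09, 0 were called, and 68 were lower in both pairs. The difference of the effects was called lower for 83 (18.8%) and higher for 3, with a median of -0.27. A median over genes of 1 chromosome was not tested. Replicate 1, in which Xist was higher with dTAG (5839 against 4363 CPM), was also the pair with the lower X-linked median. So few pairs cannot show whether the X-linked change follows the Xist level, and such a relation was not tested.

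X-linked housekeeping genes were among them. Of 30 listed, 13 were called lower and 0 higher in D395A, against 31.7% and 2.94% of X-linked genes, and 11 lower for the difference. The median was -0.25, with -0.42 in pair 1 and -0.11 in pair 2. Huwe1, a ubiquitin ligase, was at 829 and 797 CPM with Dox and 448 and 546 CPM with dTAG + Dox, and at 632 to 745 CPM in WT (-0.72 ± 0.08). Smc1a, a cohesin subunit, fell by 0.69 ± 0.07 and Gla, a lysosomal galactosidase, by 0.79 ± 0.15. Rbmx, above, fell the most of the list. By dTAG without Dox, Rbmx (-0.77), Huwe1 (-0.32) and Smc1a (-0.24) were also called lower. Among 12 genes known to escape silencing in various cells, 2 were higher, against 2.94% of X-linked genes. A further 4 were lower, close to the X-linked share of 31.7%. The median was -0.07, with pairs of opposite sign (-0.15 and 0.03). Jpx, a noncoding gene beside Xist, rose by 0.46 ± 0.12 and Ftx, another, fell by 0.45 ± 0.08. After median-ratio scaling Jpx was not called. By dTAG without Dox, 4 of the 12 were called higher and 2 lower, with Jpx (0.64) among the higher and Ftx (-0.27) among the lower.

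Firre, an X-linked RNA of nuclear organisation, was at 145 and 87.0 CPM with Dox and 54.9 and 50.5 CPM with dTAG + Dox in D395A. In WT it was at 128.4 and 53.4 CPM, and at 123.2 and 65.4 CPM with dTAG. It fell by 1.08 ± 0.18, and the difference was -1.19 ± 0.25 (adjusted p 0.013 in limma). Of the 13 X-linked genes called higher, Hs6st2, a heparan sulfate sulfotransferase, rose by 0.96 and Eras, a Ras of stem cells, by 0.60, and 12 of the 13 were also called higher by dTAG without Dox. Of the 140 called lower, 34 were also called lower without Dox and 2 higher. Over all 442 measured X-linked genes, 36 were called lower and 83 higher by dTAG without Dox.

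Lower X-linked genes lay along the whole chromosome. In 8 windows of distance from Xist, the D395A medians ran from -0.29 (40 to 70 Mb towards higher positions, 85 genes) to -0.13 (80 to 110 Mb towards lower positions, 74 genes). The window within 20 Mb towards lower positions, with 58 genes, had a median of -0.28 and 27 genes called lower. WT medians of the same windows ran from 0.02 to 0.07. Pair 1 was lower than pair 2 in all 8 windows, with medians of -0.53 to -0.23 against -0.16 to 0.01, so the size of the window values rests largely on replicate 1.

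**Figure D4:**
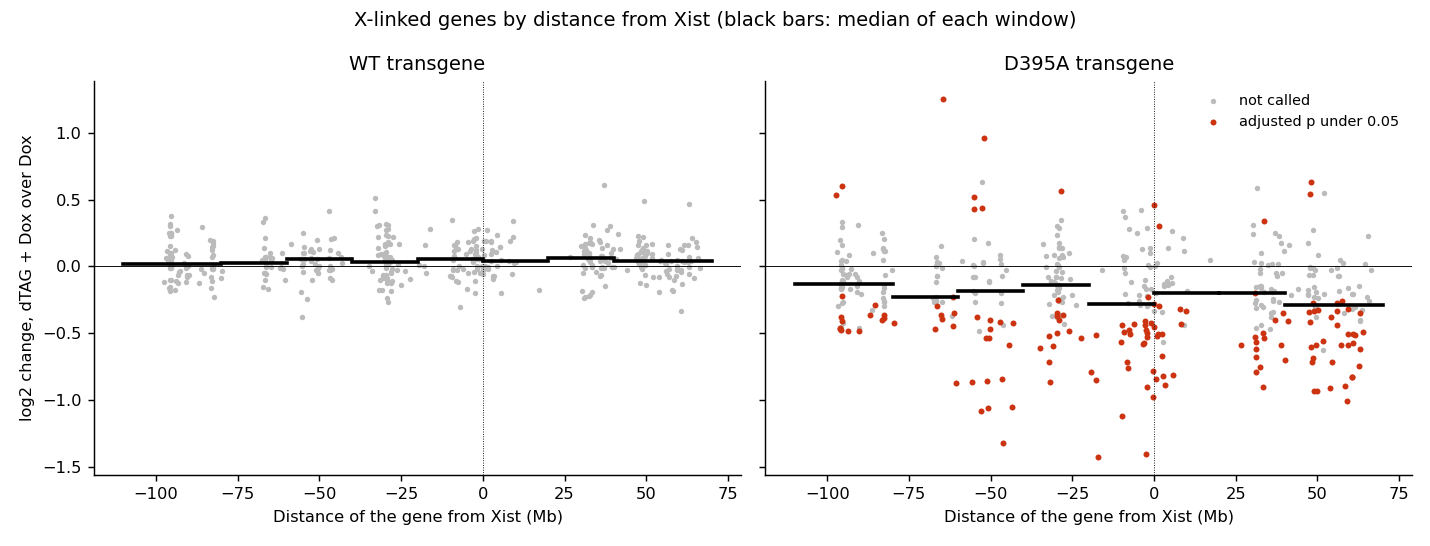
Log2 change with dTAG of 442 X-linked genes against distance from Xist (Mb; 0 marks Xist, negative is towards lower positions), for the WT and D395A clones, with called genes in colour. Black bars are window medians, between 0.02 and 0.07 in WT and between -0.29 and -0.13 in D395A.

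All 16 XiO libraries, those without Dox included, give the change on Xist induction in each arm. With Dox against no Dox, the median X-linked change in the D395A clone was -0.66 and -0.80 in the arm without dTAG, and -1.12 and -0.99 in the arm with dTAG. In the WT clone it was -0.94 and -1.02 without dTAG and -0.96 and -0.93 with it. Both D395A pairs were lower with dTAG, and the D395A clone without dTAG had the smallest decrease of the 4 arms. Autosomal medians lay between -0.00 and 0.04. The X-linked share of reads, Xist left out, was 1.76% and 1.68% with Dox and 1.28% and 1.46% with dTAG + Dox in D395A, and 1.68% and 1.66%, and 1.65% and 1.74%, in WT.

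Without Dox the dTAG effect in D395A on X-linked genes had a median of 0.08, close to that of autosomal genes (0.12). The dTAG effect with Dox minus that without Dox had a median of -0.32 over the X-linked genes in D395A, 0.04 in WT, and 0.01 over autosomal genes in D395A. This contrast was added after the data were seen. For each gene it equals the difference of the arms above, so it is not a separate result. It had an unadjusted p under 0.05 for 4.24% of all genes. It was called for a single gene (0.00744% of those tested), the X-linked Nhs (-1.01 ± 0.09; adjusted p 0.000497 in limma), and 161 X-linked genes had an unadjusted p under 0.05 in the lower direction against 0 in the higher.

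**Figure D5:**
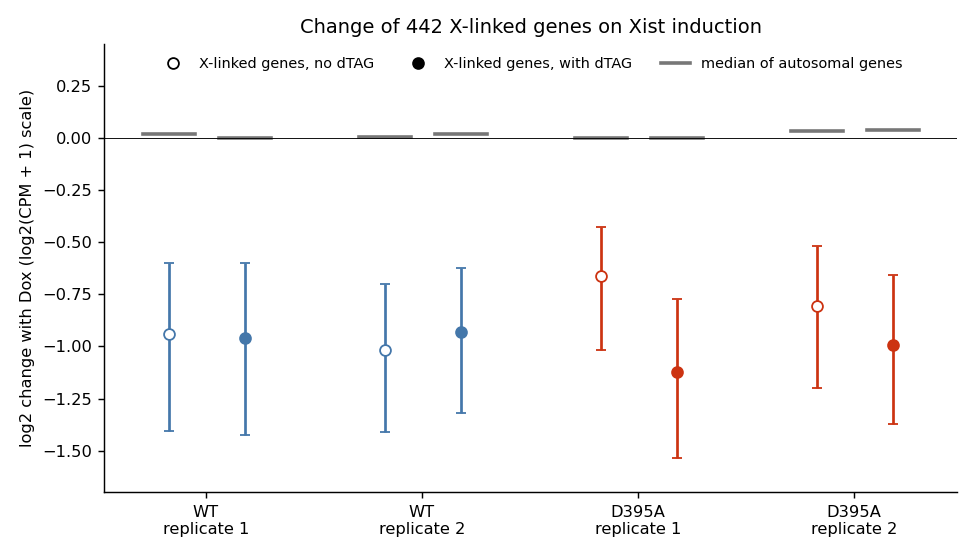
Median log2 change of 442 X-linked genes with Dox (circles; bars span the quartiles over genes) in each clone and replicate, without dTAG (open) and with dTAG (filled), and the median of autosomal genes (grey). The open D395A circles, at -0.66 and -0.80, are the highest.

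Other long noncoding RNAs moved both ways. Of 14 chromatin-retained and imprinted RNAs, 2 were higher and 6 lower in D395A (median -0.21), against 23.7% and 7.39% of all genes, and 5 were lower for the difference, against 2.49%. Rian and Meg3, which lie in 1 imprinted cluster on chromosome 12, fell by 0.67 and 0.75. Rian was at 5821 and 5871 CPM with Dox and 3784 and 3577 CPM with dTAG + Dox, and at 1929 to 2627 CPM in WT. Airn, the imprinted antisense RNA of Igf2r, rose by 0.71 ± 0.16, from 97.8 and 136.5 CPM to 182 and 197.8 CPM, which is below 201.9 to 312 CPM in WT.

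Of 23 measured genes of the pluripotency network 8 were called lower and 0 higher (median -0.25), against 7.39% and 23.7% of all genes, and 7 were lower for the difference (median -0.44). The medians of the pairs were -0.51 and -0.00. Prdm14, a repressor of lineage genes, fell by 0.91 ± 0.19, Tet2, a DNA demethylase, by 0.75 ± 0.11, and Klf5 by 0.71 ± 0.16, and X-linked Nr0b1 is above. Tet2 was at 333.3 and 204.3 CPM with Dox and 171.9 and 138.7 CPM with dTAG + Dox, and at 143 to 233 CPM in WT. Esrrb (-0.45 ± 0.09) and Tdgf1 (-0.48 ± 0.11) were the stem cell markers that were called.

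Of 16 genes of lineage and exit from the naive state, 3 were higher and 3 lower, against 23.7% and 7.39% of all genes. T, the mesoderm factor brachyury, fell by 1.17 ± 0.16, from 6.46 and 6.71 CPM to 2.60 and 2.14 CPM, and was at 42.8 to 82.4 CPM in WT. Lef1, a Wnt effector, fell by 0.78, Nes rose by 0.70, and Eomes rose by 0.46, the last not called after scaling. All WT libraries held more T than any D395A library.

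Of 8 genes of the m6A writer complex 4 were higher and 0 lower in D395A (median 0.21), against 23.7% and 7.39% of all genes. After scaling 2 were higher and 2 lower, against 11.4% and 17.9% of all genes. Rbm15b and Rbm15, which recruit the complex, rose by 0.57 ± 0.13 and 0.35 ± 0.06, and were called for the difference, though not after scaling. Cbll1 (0.33) and Virma (0.32), listed as 1110037F02Rik, were called in CPM and not after scaling. Of 13 erasers and readers 2 were higher and 2 lower, a share close to the 31.1% of all genes called. After scaling 1 was higher and 6 were lower, against the same 11.4% and 17.9%. Ythdf2, the reader tied to RNA decay, rose by 0.37 and X-linked Fmr1 fell by 0.61. Igf2bp3 fell by 0.21, and Igf2bp1 rose by 0.20, a call that scaling ended.

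Of 20 exosome and adaptor genes Dis3l (0.70 ± 0.11, higher) and Srrt (-0.30 ± 0.06, lower) were called, a smaller share than the 31.1% of all genes. Among 19 regulators and effectors of Xist, 3 were higher and 2 lower, near the all-gene share of 31.1%. Pcgf5 (0.44), a Polycomb subunit recruited by Xist, and Pcgf3 (0.21) were higher, calls that scaling ended, and Yy1 (-0.31) and Ezh2 (-0.27), the Polycomb methyltransferase, were lower. Among 18 genes of retroelement silencing 2 were higher and 3 lower, also near that share. Setdb1, a histone H3 methyltransferase, rose by 0.38 and Atrx, which is X-linked, fell by 0.51, with Atf7ip (-0.40) and Dnmt1 (-0.24) also lower.

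Of 16 SR splicing factors and CLK kinases 6 were lower and 0 higher (median -0.17), against 7.39% and 23.7% of all genes, led by Tra2a (-0.38 ± 0.08), Clk1 (-0.23), Srsf4 (-0.22) and Clk4 (-0.19). None of the 16 was called for the difference. In p53 targets, 3 of 20 were higher and 3 lower, a share close to the 31.1% of all genes called. Eda2r, which is X-linked, was at -0.43. After scaling 0 of the targets were higher and 5 lower, against 11.4% and 17.9% of all genes. In the integrated stress response and serine synthesis, 4 of 17 were higher and 2 lower, near the same 31.1%, with Ddit3 at -0.61, Asns at -0.47 and Phgdh at 0.47. Of 17 immediate early genes only Sgk1 (-0.48) was called, against 31.1% of all genes. Of 18 genes of the two-cell-like state only Zfp750 was measured, at 0.18 and not called.

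Of 323 autosomal zinc finger Zfp genes measured, 104 were called higher (32.2%, against 23.7% of all genes) and 9 lower in D395A, with a median of 0.21. After median-ratio scaling 58 were higher and 34 lower (median 0.06), against 11.4% and 17.9% of all genes (median -0.03). Of 77 ribosomal protein genes 1 was called (Rps4l) and of 43 replication-dependent histone genes 0, against 31.1% of all genes. Their medians were 0.11 (pairs of -0.09 and 0.31) and 0.23 (pairs of -0.02 and 0.48), both of opposite sign in the pairs. Of 28 short RNA loci 11 were higher and 1 lower, against 23.7% and 7.39% of all genes. Of the 10 feeder markers 3 were higher and Fn1 was lower (-0.24), against 23.7% and 7.39% of all genes. The higher ones were Col5a1 (0.64), Fbn1 (0.47) and, not called after scaling, Col3a1 (0.47). The part of the feeder markers in the results above was not tested.

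Called genes differed in level and span. The 994 lower genes had a median level of 93.8 CPM and a median span of 56.4 kb, and the 3188 higher genes 17.4 CPM and 28.6 kb, against 22.5 CPM and 25.3 kb over all genes tested. Among genes of 100 CPM or more 13.9% were higher and 18.4% lower, and among genes of 2 to 5 CPM 26.9% and 1.88%. Among genes spanning 300 kb or more 30.9% were called higher and 14.9% lower, with a median change of 0.12. Among those under 3 kb the shares were 12.1% and 2.07%, with a median change of 0.15. After median-ratio scaling 21.6% were higher and 25.1% lower at 300 kb or more, and 7.08% and 3.63% under 3 kb. The letters GGACT, a common form of the m6A consensus, occurred in the longest GENCODE vM21 transcript of 95.6% of the higher and 95.3% of the lower genes with a transcript there, against 93.5% of all (sense strand only). The median number per kb was 1.08, 0.94 and 1.03, and Xist held 15 in 17.9 kb.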

How the data were processed

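ChrRNA-seq tables of the XiO and XX transgene lines were used. The authors discarded ribosomal reads (bowtie2), used STAR on an mm10 reference with strain variants masked, kept unique alignments, counted stranded reads over whole transcripts (introns included) with featureCounts, and deposited CPM from edgeR. Per the labels and the values, 100% of CPM were whole multiples (within 0.05 reads) of a single step per library, which gave reads. Replicates differed by more than counting error, and depth covers counting error only. Of 22556 symbols 22429 (99.4%) matched RefSeq of GRCm38.p6.

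Tests used log2(CPM + 1) with limma 3.58.1 (R 4.3.3; lmFit, eBayes with trend) over all 16 XiO libraries, with a block per clone and replicate (6 residual degrees of freedom), because the comparison is paired by replicate. Replicate differences of a treatment correlated across genes with those of the other treatments at 0.72 to 0.89 (D395A) and 0.87 to 0.92 (WT). P values were two-sided and adjusted by Benjamini-Hochberg over all 13448 genes, with calls under 0.05. Nothing in the labels places replicates in separate cultures. The authors state that the wells of a biological replicate came from a single batch of cells, divided at random between conditions. P values measure the spread between these libraries. Alternatives were the block, libraries, scaling, pseudocount, filter, edgeR 4.0.16, DESeq2 1.42.0 and leaving out each replicate. Code was tested on simulated data. Members, lists and tests were chosen with earlier results of these data known. Genes named are 14 listed ones, the 10 highest and 10 lowest called genes for the D395A effect and for the difference (mean of at least 5 CPM, same sign in both pairs, no clone or short RNA names), any such genes of the WT effect, and up to 4 members of each list (those called with the largest change, or else the highest level). Pcgf3, Hs6st2, Eras, Nhs and genes given only as ranges or counts were named after their values were seen. Some genes that the rule names are not reported here.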

Additional observations from a re-analysis of the deposited data

Results flagged for a closer look

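The D395A and WT clones differed in their response to dTAG, by the test of the difference itself, for 1250 genes. Among named genes the difference (D395A effect minus WT effect, log2, limma adjusted p under the threshold) was 1.10 for Xist, 0.34 for Kcnq1ot1, 0.64 for Tor1aip2 and -0.64 for Malat1. It was 3.41 for Car10, 1.82 for Ptchd4, 1.82 for Nav3, 1.79 for Megf11, 1.73 for Lsamp, 1.69 for Gpr141, 1.55 for Slc2a13 and 1.40 for Cntnap4. It was -1.96 for Dnah8, -1.42 for Ypel2, -1.41 for Gpa33, -1.38 for Nr0b1, -1.30 for Slc7a3, -1.28 for Ncam1, -1.22 for Rbmx, -1.22 for Phf11d, -1.21 for Tfeb and -1.19 for Firre. Each value compares 1 clone with another.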

How the results depend on the processing

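The replicate block decided most calls. With no replicate block, 7 genes were called for the D395A effect and 0 for the difference (512 at an unadjusted p under 0.05). Leaving out the block cannot move the changes in this balanced design. Those of Xist (1.02 in D395A, 1.10 for the difference) and Kcnq1ot1 (0.33 and 0.34) were then not called. With the replicate block by number alone, 1536 and 50 genes were called, and the Xist difference (1.10) and both Kcnq1ot1 values (0.33, 0.34) were not. With only the 8 libraries with Dox, 4597 and 1611 genes were called, and the Xist and Kcnq1ot1 values all kept their call. Median-ratio scaling ended the calls of the Xist difference (0.97) and of Kcnq1ot1 (0.18, and 0.21 for the difference). The Xist difference was also not called with a pseudocount of 0.25 CPM (1.10), no filter (1.10) or DESeq2 (1.02), nor the Kcnq1ot1 difference with no filter (0.34), edgeR (0.24) or DESeq2 (0.23). With no filter 780 genes were called for the difference. The D395A count was split 1986 higher and 1897 lower with edgeR, and 1369 and 1802 with DESeq2, against 3188 and 994 in CPM.

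Leaving out each replicate gave 1626 to 3468 genes for D395A and 39 to 957 for the difference. Xist ranged from 0.78 to 1.26 (D395A) and from 0.86 to 1.34 (difference), and Kcnq1ot1 from 0.32 to 0.34 and from 0.29 to 0.38. The Kcnq1ot1 difference lost its call whichever replicate was left out (adjusted p 0.0689 to 0.257 in limma). The fit without a clone's replicate assumes that the lone pair varies like the other clone. Kcnq1ot1 in WT ranged from -0.044 to 0.040, positive without WT replicate 1. Over all alternatives X-linked medians ranged from -0.36 to -0.03 (D395A), from -0.02 to 0.09 (WT) and from -0.41 to -0.06 (difference). The D395A median was -0.05 without D395A replicate 1 and -0.03 with no filter. WT counts stayed at 0 throughout.

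Of 104 called values of other named genes, 40 kept their call in every alternative that gave a value other than the unblocked fit, and none reversed. Of these 40, 4 (Car10, Cntnap4, Gpr141 and Tor1aip2 in D395A) also kept their call in the unblocked fit. Leaving out a replicate changed the sign of values that were not called with all libraries, which ranged from -0.66 to 0.0024 (Neat1 in D395A), -0.10 to 0.024 (Spen in D395A), -0.29 to 0.42 (Pou5f1 in D395A), -0.56 to 0.14 (Nanog in D395A), -0.038 to 0.015 (Ythdc1 difference) and -0.39 to 0.32 (Pou5f1 difference). Zcchc8 turned with scaling (-0.13), edgeR (-0.086) and DESeq2 (-0.10), and ranged from -0.0017 to 0.050 with a replicate left out, and its difference turned with scaling (-0.080), edgeR (-0.048) and DESeq2 (-0.056). Pou5f1 turned with scaling (-0.085), edgeR (-0.021) and DESeq2 (-0.049). The causes were not tested.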

Other observations

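A single library held high values of 2 abundant genes. Filip1l was at 5054 CPM and Jarid2 at 4781 CPM in the WT library with dTAG + Dox of replicate 1, against 627.9 and 1905 CPM in its pair with Dox, and 179 and 2137 CPM in the same group's replicate 2. Neither gene was called. These genes were named after their values were seen.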
